A study of Penicillium oxalicum with 18 samples.

Results

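The response of wild type Penicillium oxalicum to bran and cellulose was measured in 6 of the 18 libraries of the series, which were taken by strain and medium from the sample labels. Of these, 3 libraries came from wild type strain 114-2 on 1% bran with 1% microcrystalline cellulose, and 3 came from the same strain on 2% glucose. All mycelium had first been precultured on 2% glucose for 24 h at 30 °C and was then moved to the test medium for 24 h. The other 12 libraries came from strains deleted for hap3 or for hap5 on the same media, 3 libraries for each strain and medium. They enter below through a shared estimate of spread and through tests of the difference between responses.

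Filamentous fungi of this genus live on plant litter and secrete enzymes that break cellulose, hemicellulose and starch into sugars. On glucose, carbon catabolite repression keeps many genes for these enzymes low. On polymeric substrates the repression eases, and small sugars released from the polymer induce the same genes through dedicated transcription factors. The Hap3 and Hap5 proteins belong to a complex that binds CCAAT sequences in promoters and that takes part in the control of many fungal genes. The table pairs its locus tags with no gene names, and 0 of its 9277 identifiers matched the reference gene table, so no tag below is given a function.

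Values are FPKM (mapped fragments scaled to gene length and to the size of the library). The labels' protocol instead describes libraries of short tags beside NlaIII sites, a kind of data that needs no scaling by length, and which of these holds could not be settled here. Ranks and shares of genes against each other depend on it. The 6 wild type libraries had FPKM totals of 966280 to 1130190 and listed 804 to 959 genes at 0. The read depth behind them is unknown, so no counting error is given. Across genes, log2(FPKM + 1) values correlated at 0.980 to 0.986 between libraries of the same medium and at 0.718 to 0.736 between media, a description over genes that are not independent replicates. The median SD of a gene over 3 libraries was 0.0995 on bran and cellulose and 0.126 on glucose (log2 scale). Whether the 3 libraries of a medium came from different cultures is not stated in the labels, and the spread behind every p-value may therefore be technical.

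Transcript levels of 3226 genes (37.2% of those tested) differed between the media. Of 8681 tested genes, 2017 (23.2%) were higher and 1209 (13.9%) were lower on bran and cellulose, by limma with an adjusted p under 0.05 and a log2 change of at least 1. Changes of at least 3 on the log2(FPKM + 1) scale were seen at 523 genes that rose (6.02% of those tested) and 238 that fell (2.74%), and changes of at least 5 at 160 (1.84%) and 81 (0.933%). The libraries of the media did not overlap at 6773 genes (78% of those tested), among them 2001 of the rising and 1196 of the falling genes. Most calls were of modest size: 1060 rising and 743 falling genes changed by 1 to 2. In whole mycelium, fewer cells of a kind and less RNA per cell cannot be told apart. The balance of directions depended on scaling. In the deposited values 62.5% of calls were higher, with a median log2 change over all genes of 0.157, and 48.8% were with quantile normalization. With median-of-ratios scaling the share was 56.5% and the median shifted by -0.126. Changes below are on the deposited scale.

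**Figure D1:**
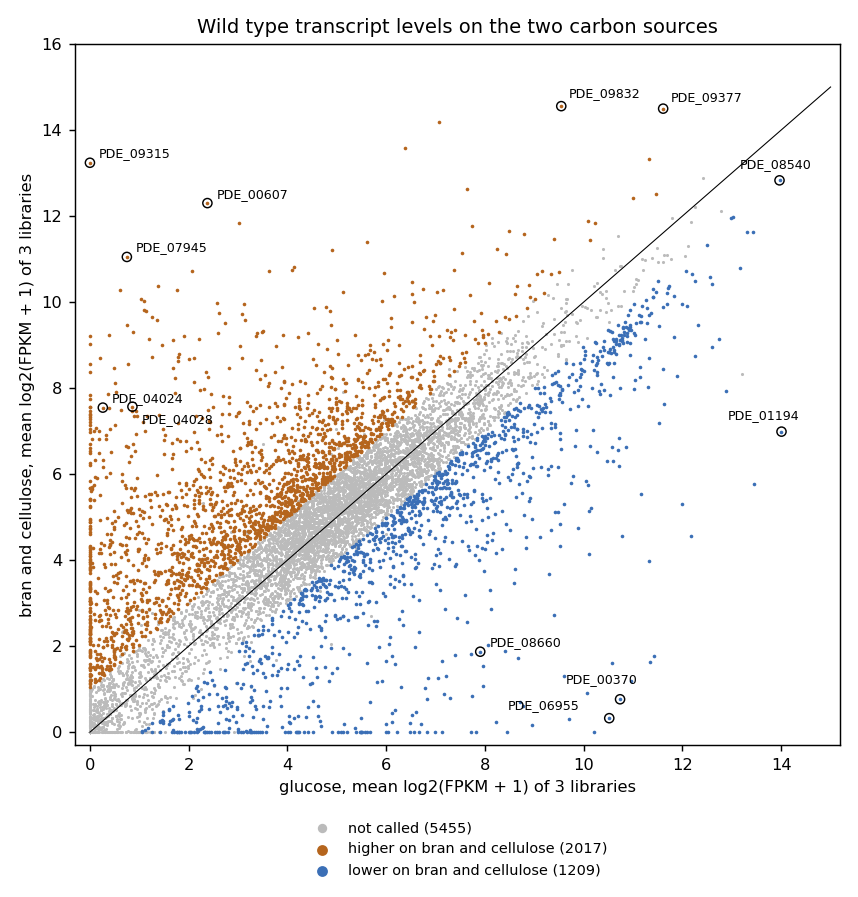
Mean log2(FPKM + 1) of each of 8681 tested genes in 3 wild type libraries on bran and cellulose (vertical axis) against 3 on glucose (horizontal axis); the line marks equal levels and circles mark the 12 named genes. The 2017 genes called higher lie above the line and the 1209 called lower lie below it, down to genes at 0 on one axis.

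The shares of rising and falling genes differed between levels of transcript, with no steady trend. Genes were divided by their mean log2 level over the 6 libraries into 5 classes of nearly equal number. From the lowest to the highest class 27.0%, 31.3%, 21.8%, 20.6% and 15.5% of genes rose, and 12.5%, 10.4%, 8.76%, 12.4% and 25.5% fell. Falling genes outnumbered rising genes in the most abundant class alone. At a mean of 9 or more on the log2 scale, a limit set after the values were seen, there were 277 genes. Of these, 34 (12.3%) rose and 146 (52.7%) fell, and 112 of those that fell did so by 1 to 2 only. The median log2 change of the 277 genes was -1.13, against 0.157 over all tested genes. Many of them lie in the dense band below the line at the upper right of the plot of levels.

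Graded responses, in genes above 0 in every wild type library, reached about 10 log2 units in both directions. PDE_07945 had 2268, 2107 and 1987 FPKM on bran and cellulose, against 0.84, 0.61 and 0.6 FPKM on glucose. It rose by 10.30 on the log2 scale (SE 0.15, limma adjusted p = 6.3e-17), the largest rise of this kind. PDE_00607 had 5053, 5670 and 4480 FPKM on bran and cellulose, against 4.4, 3.82 and 4.41 FPKM on glucose, a log2 change of 9.92 (SE 0.16, limma adjusted p = 1.41e-16). In both genes the libraries of a medium lay close together and the media were far apart.

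The largest fall was that of PDE_06955, with 0.22, 0.31 and 0.23 FPKM on bran and cellulose, against 1262, 1121 and 2222 FPKM on glucose. Its log2 change was -10.19 (SE 0.19, limma adjusted p = 1.05e-15). The third glucose library stood above the other two at this gene, by far less than the distance between media. PDE_00370 had 0.6, 0.99 and 0.54 FPKM on bran and cellulose, against 1672, 1759 and 1686 FPKM on glucose, a log2 change of -9.97 (SE 0.13, limma adjusted p = 2.18e-17). Its glucose libraries were among the most even of the named genes, at 1706 ± 47.0 FPKM (SD, n = 3).

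**Figure D2:**
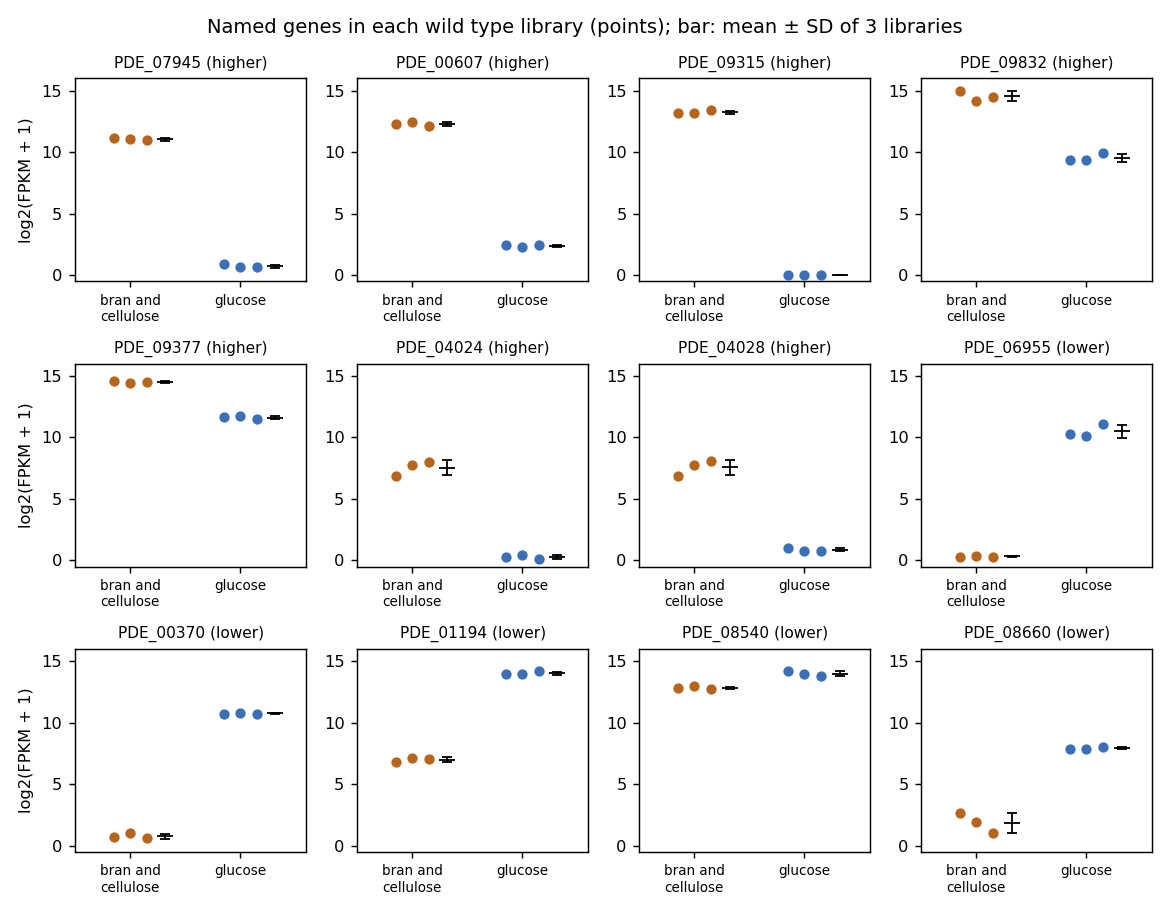
log2(FPKM + 1) of the 12 named genes in each wild type library, bran and cellulose left and glucose right; points are libraries and bars give mean ± SD of 3. No gene has overlapping media, which was a condition of the choice of genes. The widest scatter within a medium is that of PDE_08660 on bran and cellulose, at 5.26, 2.85 and 1.03 FPKM.

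Some of the response was close to on and off. With off set at no more than 1 FPKM in all 3 libraries of a medium, and on at no less than 10 FPKM in all 3 of the other, 135 of the 2017 rising genes were off on glucose and on with bran and cellulose (1.56% of tested genes). Another 67 of the 1209 falling genes went the other way (0.772%). On glucose 57 of the 135 were at 0 in each library, and on bran and cellulose 36 of the 67 were. A value listed at exactly 0 can be a failed estimate, and for these genes off means only that they were listed at 0 in all 3 libraries. Most of these genes were of middling level where they were on: the median was 41.2 FPKM for the 135 and 44.5 FPKM for the 67, and 39 and 18 of them reached 100 FPKM.

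PDE_09315 had the highest level among the 135, with 9100, 9200 and 10778 FPKM on bran and cellulose, and it was listed at 0 in all 3 glucose libraries. A fold against libraries at 0 is not computed, and its place in the class rests on those listed zeros. It ranked 6 among all transcripts on bran and cellulose. PDE_07945 came next among the 135, and PDE_00370 and PDE_06955 had the highest glucose levels among the 67, so 3 of the 4 strongest graded changes were also switched.

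The 10 most abundant transcripts of a library carried 12.5% to 13.8% of the FPKM total on bran and cellulose. PDE_09832, the most abundant there, held 2.55% ± 0.734 of the total on bran and cellulose and 0.0686% ± 0.0176 on glucose (SD, n = 3 each). Its 3 bran and cellulose libraries ranged widely, at 32473, 18130 and 23668 FPKM, against 645.5, 658.4 and 978.3 FPKM on glucose. The log2 change was 5.01 (SE 0.32, limma adjusted p = 1.14e-09). PDE_09831, the tag before it and chosen after its values were seen, had the same order of libraries, at 8207, 4755 and 6610 FPKM on bran and cellulose and 173.2, 173.4 and 263.7 FPKM on glucose.

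PDE_09377 ranked 2 on bran and cellulose with 24015, 22525 and 22841 FPKM, against 3161, 3373 and 2857 FPKM on glucose. Its log2 change of 2.89 (SE 0.16, limma adjusted p = 1.68e-10) was smaller than those above, and the gene ranked 44 on glucose. PDE_01194 ranked 1 on glucose and 1385 on bran and cellulose, with 107.1, 141.6 and 131.6 FPKM on bran and cellulose, against 15453, 15708 and 18344 FPKM on glucose. Its log2 change was -7.02 (SE 0.11, limma adjusted p = 1.01e-16). PDE_08540, ranked 2 on glucose, stayed abundant, with 7103, 7844 and 6918 FPKM on bran and cellulose, against 18644, 15861 and 13846 FPKM on glucose. Its log2 change was -1.14 (SE 0.33, limma adjusted p = 0.00627), and -2.01 after quantile normalization.

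The lists of abundant transcripts overlapped in part. Of the 100 most abundant genes on bran and cellulose, 44 were also among the 100 most abundant on glucose. Among the 100 on bran and cellulose, 46 were called higher there, 17 were called lower and 37 were not called. Over all tested genes 23.2% were called higher and 13.9% lower, and in the most abundant of the 5 classes 15.5% and 25.5%. Among the 100 on glucose, 4 were higher on bran and cellulose, 73 were lower and 23 were not called. All 56 genes in the glucose list alone were called lower on bran and cellulose, whereas 42 of the 56 in the bran and cellulose list alone were called higher. The lists were chosen by the same values as the calls, so these counts are a description.

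The rising, falling and switched genes were also chosen on the same values, so their shares of the FPKM total are a description. The 2017 rising genes held 41.3% ± 0.945 of the FPKM total on bran and cellulose and 5.71% ± 0.337 on glucose (SD, n = 3 each). The 1209 falling genes held 15.6% ± 0.490 on bran and cellulose and 54.3% ± 1.54 on glucose. The 135 genes switched on held 2.39% ± 0.146 on bran and cellulose, of which PDE_09315 alone held 0.999% ± 0.101. On glucose they held 0.00248% ± 0.000115. Concentration at the very top was higher on bran and cellulose, but lower further down. The 10 most abundant genes of a library held 13.8%, 12.5% and 13.0% of the total on bran and cellulose, against 10.1%, 9.66% and 9.52% on glucose. The 100 most abundant held 33.9%, 32.7% and 32.7% on bran and cellulose, against 36.2%, 36.0% and 34.8% on glucose. The 500 most abundant held 57.5%, 56.8% and 56.6% on bran and cellulose, against 66.8%, 66.6% and 64.5% on glucose. None of these groups of libraries overlapped, and each exact two-sided permutation test gave p = 0.1, the smallest that 3 against 3 libraries allows.

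Genes with consecutive locus tags often changed together. The table gives no positions, so tag numbers serve only as an order of identifiers. Where a gene rose and the next tag was tested, that next tag rose too in 37.8% of 1734 cases, against 23.2% of all tested PDE tags. It fell in 11.1%, against 13.9% of all. For falling genes the next tag fell in 20.6% of 1049 cases, against 13.9%, and rose in 17.8%, against 23.2%. Rising genes formed 53 runs of at least 4 consecutive tags with 291 genes in all, and falling genes formed 9 such runs with 46 genes. A tag that was not listed, not tested or not called the same way ended a run. Strand handling is not given in the sources used here, so values of overlapping neighbours are uncertain.

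The longest rising run held 19 tags, from PDE_09226 to PDE_09244. Its summed level was 8420, 5922 and 5590 FPKM on bran and cellulose, against 36.6, 33.2 and 40.2 FPKM on glucose. No member averaged over 9.49 FPKM on glucose, and none averaged under 63.5 FPKM on bran and cellulose. Log2 changes ran from 3.66 to 9.68 over the 17 members above 0 on both media, and the other 2 were listed at 0 in all glucose libraries. The most abundant member, PDE_09235, had 1703, 1360 and 839.3 FPKM on bran and cellulose, against 0.5, 0.15 and 1.04 FPKM on glucose. The flanking tags PDE_09225 and PDE_09245 were not called. All 19 members were highest in the first bran and cellulose library, where 33.9% of all rising genes were highest. On glucose, 55.4% of all rising genes were highest in the third library; whether that library differs in another respect was not tested.

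The next longest rising run held 13 tags, from PDE_00789 to PDE_00801, at lower levels. Its summed level was 587.4, 372.5 and 492.7 FPKM on bran and cellulose, against 35.8, 34.5 and 53.6 FPKM on glucose. Log2 changes ran from 1.17 to 5.38 over the 12 members above 0 on both media. PDE_00794 was the most abundant, with 148.6, 92.1 and 122.0 FPKM on bran and cellulose, against 1.01, 1.73 and 3.3 FPKM on glucose. All 13 members were highest in the first bran and cellulose library and lowest in the second. The run ended at PDE_00802, which was not called, and PDE_00803 to PDE_00806 after it rose by 2.36 to 3.76. A run of 12 tags from PDE_09999 to PDE_10010, named after its values were seen, was also highest throughout in the first library. A run of 11 tags from PDE_04019 to PDE_04029, named in the same way, showed the reverse order: all 11 were lowest in the first library and highest in the third, and its summed level was 1927, 3009 and 3559 FPKM on bran and cellulose, against 288.3, 279.7 and 373.8 FPKM on glucose. Just before that run, PDE_04014 to PDE_04017 rose as well, by 2.05 to 8.51, and PDE_04018 between them was not listed. Differences between the cultures behind these libraries were not tested.

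The longest falling run held 10 tags, from PDE_01230 to PDE_01239. Its summed level was 289.0, 337.4 and 387.1 FPKM on bran and cellulose, against 2264, 2145 and 1905 FPKM on glucose. Log2 changes ran from -4.34 to -1.37. PDE_01232 was the most abundant, with 31.8, 65.9 and 77.7 FPKM on bran and cellulose, against 896.3, 816.6 and 841.6 FPKM on glucose. The tag before the run, PDE_01229, rose, with 68.4, 166.3 and 85.1 FPKM on bran and cellulose, against 3.48, 0 and 0 FPKM on glucose. The next falling run held 6 tags, from PDE_05601 to PDE_05606, with summed levels of 71.3, 67.8 and 57.9 FPKM on bran and cellulose, against 384.4, 407.7 and 377.4 FPKM on glucose. Its most abundant member was PDE_05605, with 40.9, 38.6 and 35.8 FPKM on bran and cellulose, against 128.2, 128.8 and 116.5 FPKM on glucose.

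**Figure D3:**
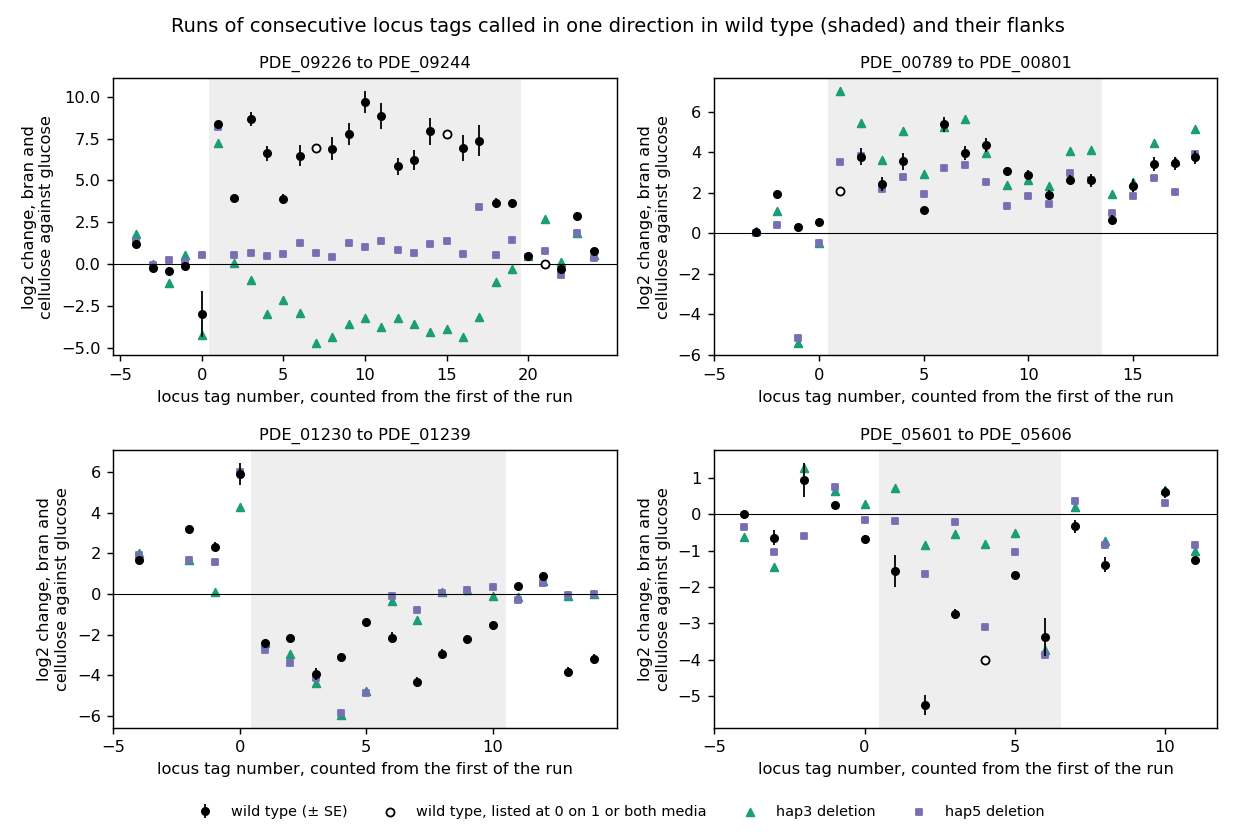
Log2 change on bran and cellulose against glucose (vertical axis) by locus tag number counted from the first tag of a run (horizontal axis), for the 2 longest rising and 2 longest falling runs of wild type (shaded) and up to 5 tags on either side; black points are wild type with SE, open points are genes listed at 0 on a medium, and triangles and squares are the hap3 and hap5 deletions. In the run of 19 tags wild type lies above both deletions at every tag, while in the run of 13 tags the 3 strains all lie above 0.

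The wild type response was then set against the same response in the deletion strains, to see which of its changes also occur without a Hap subunit. Of the genes that rose by 1 to 2 in wild type, 25.6% were called higher in both deletions, and of those that rose by 5 to 8, 59.4% were. Over all tested genes 12.5% were called higher in both deletions and 8.92% were called lower in both. Among falling genes the share called lower in both deletions was 22.2% for changes of 1 to 2 and 59.7% for changes of 5 to 8. A call in a deletion needed a change of at least 1 there, a limit that small responses meet less easily. How far this limit sets the differences between sizes was not tested. Of the 523 genes that rose by at least 3, 287 were called higher in both deletions and 169 in neither. Of the 238 that fell by at least 3, 137 were called lower in both and 61 in neither.

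**Figure D4:**
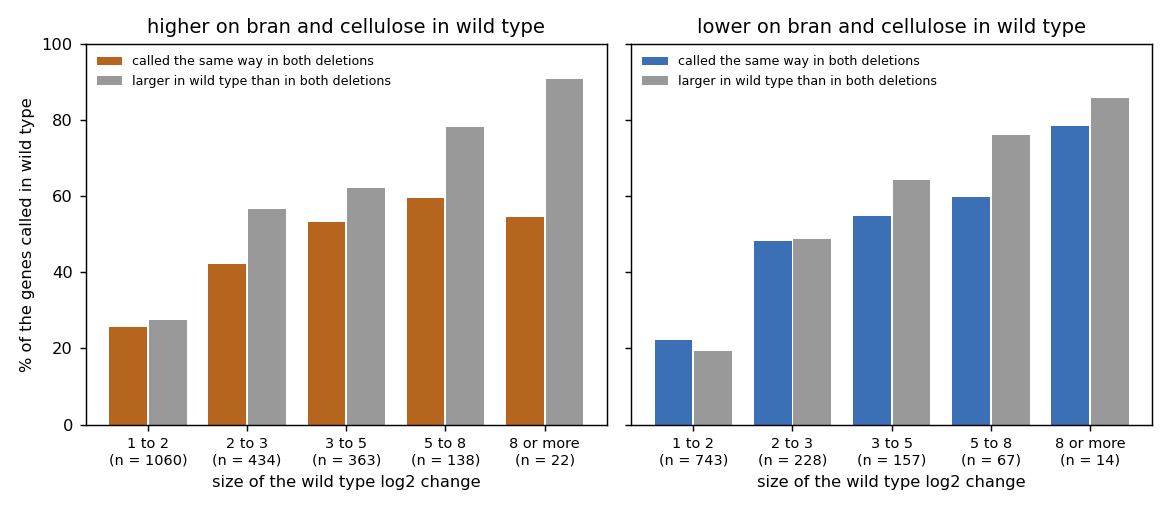
Share of the genes called in wild type, by size and direction of the wild type log2 change (horizontal axis), that were called in the same direction in both deletions (coloured bars) and whose response was larger in wild type than in both deletions by a test of the difference (grey bars). Both shares are lowest for changes of 1 to 2, at 25.6% and 27.5% for rising and 22.2% and 19.2% for falling genes. Coloured bars need a deletion change of at least 1 and grey bars a difference of at least 1. Small wild type changes meet these limits less easily, so the rise of the shares with size is a description.

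The size of the response was compared by a test of the difference between strains (limma, adjusted p under 0.05 and a difference of at least 1). Against the hap3 deletion the difference was positive at 1495 genes and negative at 1122 (30.1% of tested genes in all), and against the hap5 deletion at 1681 and 948 (30.3%). Positive calls made up 63.9% against hap5, and 52.1% with median-of-ratios scaling and 51.3% with quantile normalization. The wild type response was the more positive against both deletions at 1273 genes (14.7% of those tested) and the more negative against both at 765 (8.81%). Among the genes that rose by at least 3, 354 (67.7%) had a response more positive than in either deletion, and among those that fell by at least 3, 164 (68.9%) had a more negative one. These genes were chosen by the wild type values that also enter the difference, so the shares are a description. For the 523 rising genes the median log2 change was 4.10 in wild type, 1.79 without hap3 and 1.46 without hap5. For the 238 falling genes it was -4.22 in wild type, -1.73 without hap3 and -1.59 without hap5. Over all tested genes it was 0.157 in wild type.

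By these fixed limits, switching was seldom complete in all strains. The 135 and 67 genes were chosen by their wild type values, so the counts below are a description. Of the 135 genes switched on in wild type, 11 met the same limits in both deletions as well, 18 met them without hap3 and 14 without hap5. Without hap3, 77 of the 135 were on in every bran and cellulose library, 45 were off in every glucose library, and 19 were off in every bran and cellulose library. Without hap5 these counts were 74, 42 and 22. Of the 67 genes switched off in wild type, 8 met the limits in both deletions. On bran and cellulose 34 of them stayed off in all libraries without hap3 and 32 in all without hap5. By the limma call alone, 75 of the 135 (55.6%) were higher in both deletions, and 36 of the 67 (53.7%) were lower in both. Over all tested genes these shares were 12.5% and 8.92%.

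The runs of consecutive tags did not go alike. Without hap3, 18.6% of all tested genes rose and 13.6% fell, and without hap5, 13.8% rose and 11.1% fell. The difference from wild type was positive at 17.2% of all tested genes against hap3 and 19.4% against hap5, and negative at 12.9% and 10.9%. The runs were chosen by wild type values that also enter the difference, so counts of differences below are a description. In the run from PDE_09226 to PDE_09244 the difference was called in favour of wild type at 19 members against the hap3 deletion. Against the hap5 deletion it was so called at 18. In the hap3 deletion 15 members fell on bran and cellulose and 1 rose, and in the hap5 deletion 3 rose and 0 fell. PDE_09235, the most abundant member in wild type, was raised and scattered on glucose in the hap3 deletion. It had 76.6, 231.6 and 50.1 FPKM there, against 0.563 ± 0.448 FPKM in wild type (SD, n = 3). On bran and cellulose it had 2.35, 20.57 and 15.95 FPKM without hap3. The member that rose in the hap3 deletion was PDE_09226, the first tag of the run, with a log2 change of 7.22, against 8.39 in wild type and 8.19 in the hap5 deletion. In the run from PDE_00789 to PDE_00801 all 13 members rose in both deletions too. There the response was larger in wild type at 0 members and smaller at 8 against the hap3 deletion. Against the hap5 deletion it was larger at 4 and smaller at 0. Levels of PDE_00794, its most abundant member in wild type, were higher in both deletions on both media. On bran and cellulose it had 812.12, 798.97 and 803.14 FPKM without hap3 and 810.08, 836.99 and 775.66 FPKM without hap5. On glucose it had 15.35, 22.22 and 22.55 FPKM without hap3 and 44.26, 164.66 and 81.64 FPKM without hap5. No wild type library exceeded 148.64 FPKM on bran and cellulose or 3.3 FPKM on glucose. Deletion levels of the other members are not given here. In the falling run from PDE_01230 to PDE_01239, 6 of the 10 members fell without hap3 and 5 without hap5, and none rose in either. In that from PDE_05601 to PDE_05606, 1 of the 6 fell without hap3 and 4 fell without hap5. In the run from PDE_04019 to PDE_04029 the response was larger in wild type at all 11 members against each deletion, while 7 members fell and 1 rose without hap3, and 10 fell without hap5.

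Reversal was uncommon. In 70 of the 2017 genes that rose in wild type, both deletions fell, and in 24 of the 1209 that fell, both deletions rose. All calls and both differences were past the threshold at these genes. Over all 8681 tested genes, 8.92% were called lower in both deletions and 12.5% were called higher in both. PDE_04024 had 113.6, 220.2 and 256.2 FPKM on bran and cellulose and 0.19, 0.34 and 0.08 FPKM on glucose in wild type, a log2 change of 7.28 (SE 0.26, limma adjusted p = 1.4e-12). In the hap3 deletion the gene had 0.09, 0.16 and 0.55 FPKM on bran and cellulose and 2.72, 2.63 and 3.1 FPKM on glucose. In the hap5 deletion it had 0.64, 0.77 and 0.7 FPKM on bran and cellulose and 4.67, 3.18 and 6.72 FPKM on glucose. The falls in the deletions were thus between levels at or under 6.72 FPKM, while on bran and cellulose every wild type library lay above every deletion library. PDE_04028, in the same run of tags, had 117.0, 218.6 and 262.4 FPKM on bran and cellulose and 0.99, 0.74 and 0.73 FPKM on glucose in wild type, a log2 change of 6.71 (SE 0.22, limma adjusted p = 3.98e-13). Its level on bran and cellulose was 1.07 ± 0.218 FPKM without hap3 and 0.697 ± 0.0551 FPKM without hap5 (SD, n = 3 each).

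Of the 24 genes that fell in wild type and rose in both deletions, PDE_06955 and PDE_08660 were named by the size of their differences from the deletions. PDE_06955, at 0.253 ± 0.0493 FPKM on bran and cellulose in wild type, was at 223.0 ± 6.09 FPKM without hap3 and 263.3 ± 5.42 FPKM without hap5 (SD, n = 3 each). On glucose its level was lower in the deletions: 1535 ± 599 FPKM in wild type, 67.1 ± 5.25 FPKM without hap3 and 57.4 ± 12.6 FPKM without hap5. Levels on both media thus differed between wild type and the deletions. PDE_08660 had 5.26, 2.85 and 1.03 FPKM on bran and cellulose and 225.7, 235.6 and 255.6 FPKM on glucose in wild type, a log2 change of -6.03 (SE 0.29, limma adjusted p = 3.81e-11). In the hap3 deletion it had 256.3, 239.8 and 318.2 FPKM on bran and cellulose and 27.5, 41.7 and 34.5 FPKM on glucose, a log2 change of 2.95 (SE 0.29, limma adjusted p = 2.57e-07). The order of the media was thus opposite in these strains, with no overlap in either.

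Other named genes differed in how far the deletions followed wild type. PDE_09832 rose by 5.01 in wild type, by 5.83 without hap3 and by 4.68 without hap5. The difference from wild type was not called (limma adjusted p = 0.133 and 0.557, and 1.80 for hap5, called, with quantile normalization): the 95% confidence interval of wild type minus the deletion was -1.78 to 0.13 for hap3 and -0.63 to 1.29 for hap5. Its levels were nevertheless higher in the deletions, at 8.19% ± 0.262 and 7.68% ± 0.0621 of the FPKM total on bran and cellulose in the hap3 and hap5 strains (SD, n = 3 each). PDE_01194 had log2 changes of -7.02 in wild type, -7.36 in the strain without hap3 and -7.74 in the strain without hap5. The interval of wild type minus the deletion was 0.02 to 0.66 for hap3 and 0.40 to 1.05 for hap5 (limma adjusted p = 0.0705 and 0.000738). Both differences were under 1 and so were not called. Its levels were lower in the deletions on both media. On glucose it had 16502 ± 1600 FPKM in wild type, 4375 ± 224 without hap3 and 5888 ± 472 without hap5 (SD, n = 3 each). On bran and cellulose it had 126.7 ± 17.7, 25.8 ± 2.27 and 26.5 ± 1.64 FPKM in the same order. PDE_09377, which rose by 2.89 in wild type, had log2 changes of 0.09 without hap3 and 0.45 without hap5, neither of them called, and the highest of its 12 deletion libraries was at 528.8 FPKM. PDE_08540 had 246.8, 101.6 and 222.7 FPKM on bran and cellulose and 71.3, 120.3 and 138.3 FPKM on glucose without hap3, so the media overlapped. Its log2 change was -1.14 in wild type, 0.74 without hap3 (limma adjusted p = 0.0582) and -0.32 without hap5 (limma adjusted p = 0.416), and neither deletion was called. PDE_09315, at 9693 ± 941.5 FPKM (SD, n = 3) in wild type on bran and cellulose, had 3.82, 0 and 0.37 FPKM there without hap3 and 0, 1.74 and 1.37 FPKM without hap5, and it was listed at 0 on glucose in every strain.

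**Figure D5:**
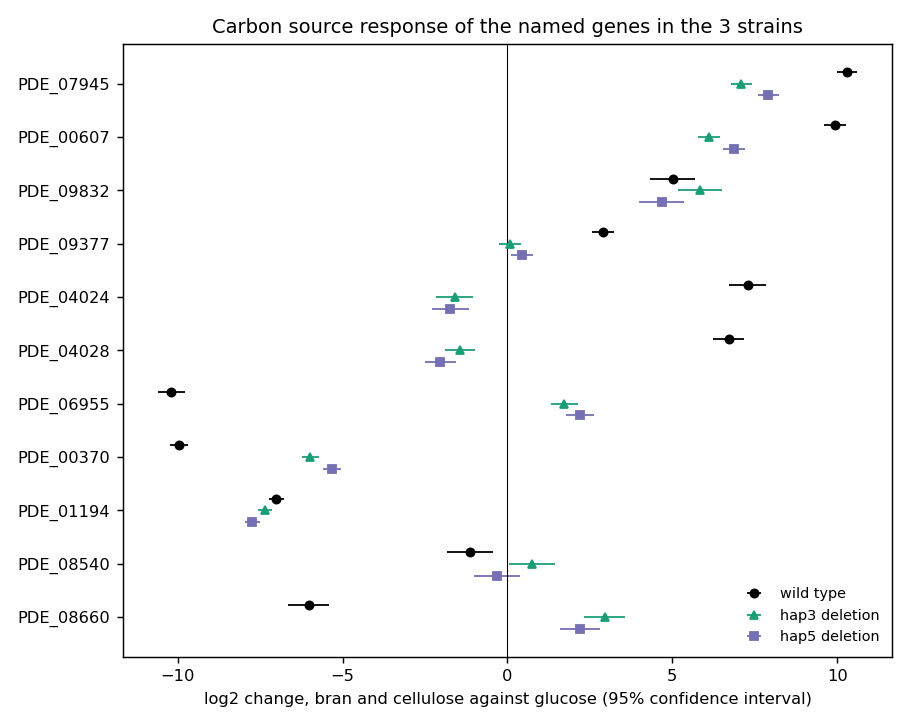
Log2 change on bran and cellulose against glucose, with its 95% confidence interval (horizontal axis), of 11 named genes (rows) in wild type, hap3 deletion and hap5 deletion; PDE_09315 is left out as it was listed at 0 on glucose. The log2 changes of PDE_09832 and PDE_01194 lie close together in the 3 strains, although their levels differed between strains. PDE_04024, PDE_04028, PDE_06955 and PDE_08660 have opposite signs in wild type and the deletions.

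The remaining genes divided into those whose change was bounded within 1 log2 unit and those whose change was not. For 3969 genes (45.7% of those tested) the 95% confidence interval of the wild type change lay within 1 log2 unit of 0, and for 1374 (15.8%) within 0.5. A bounded change is not an absent one: without a minimum change, 3635 genes were called higher and 2513 lower at the same adjusted p. Changes of genes near 0 are also understated on this scale, and 105 tested genes were listed at 0 in all 6 wild type libraries. A further 1486 genes were not called and had wider intervals. Some genes mixed 0 with higher values: 54 genes were listed at 0 in part of the bran and cellulose libraries beside at least 10 FPKM in another, and 48 genes in the glucose libraries. The most abundant such gene, PDE_04423, chosen after its values were seen, had 7328, 4498 and 0 FPKM on bran and cellulose, against 9402, 9756 and 9190 FPKM on glucose. Its log2 change was -4.88 (SE 3.18, limma adjusted p = 0.185), and -0.72 without the bran and cellulose library listed at 0. Of 35 tested identifiers that carry XLOC names in place of locus tags, 8 rose (22.9%) and 4 fell (11.4%), shares close to the 23.2% and 13.9% of all tested genes. In all 6 wild type libraries 352 of the 9277 genes were listed at 0.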

How the data were processed

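Libraries of wild type, hap3 deletion and hap5 deletion strains, 3 per medium, were described by the labels' protocols as oligo(dT) tag libraries cut with NlaIII and MmeI. Values are FPKM as the authors deposited them, in 1 table for all 18 libraries. Aligner, quantifier, build, gene models and strand handling: not given in the sources used here. Scaling tags by gene length can shift levels of genes against each other and decide which low genes pass a filter. Column names carry strain, medium and number; those of the bran and cellulose libraries differ from the titles in the medium's abbreviation and were assigned by elimination. No column stayed without a sample. The reference table belongs to strain HP7-1 and lists 9964 genes.

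The filter kept 8681 of 9277 genes, those reaching 1 FPKM in 3 or more libraries. A limma 3.58.1 model (R 4.3.3, eBayes with intensity trend) gave each of 6 groups a mean of log2(FPKM + 1), so fold changes of low genes are understated. Benjamini-Hochberg adjustment ran over all tested genes, and calls needed an adjusted p under 0.05 and a log2 change of at least 1. The fit was tested on simulated data. Depth is unknown, so no counting interval is given.

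Named genes were those called, with libraries of the media not overlapping, and were the 2 rising and 2 falling in each of 5 classes: largest change among genes above 0 in all wild type libraries and at a mean of at least 10 FPKM on a medium, switched with the highest level, most abundant, longest runs of tags, and reversed in both deletions. The most abundant gene of each run was added later. Comparisons, classes and rules were chosen with earlier results of these data known. Gene lists by function were not formed, as the identifiers carry no descriptions. Alternatives were other pseudocounts, filters, scalings and fold limits, a replicate block, a fit on wild type alone and leaving out each library.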

Additional observations from a re-analysis of the deposited data

Results flagged for a closer look

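Differences between strains were large at most of the named genes. Each value below is the wild type log2 response to bran and cellulose minus that of a deletion strain, all past an adjusted p of 0.05 by the limma test of the difference itself. Positive values mean a more positive response in wild type. PDE_07945 differed by 3.21 from the hap3 deletion and by 2.39 from the hap5 deletion. For PDE_00607 the differences were 3.81 and 3.05 in the same order. PDE_09377 differed by 2.80 from the hap3 deletion and by 2.44 from the hap5 deletion. For PDE_04024 the differences were 8.89 and 9.02 in the same order. PDE_04028 differed by 8.14 from the hap3 deletion and by 8.74 from the hap5 deletion. For PDE_06955 the differences were -11.91 and -12.39 in the same order. PDE_00370 differed by -4.00 from the hap3 deletion and by -4.64 from the hap5 deletion. For PDE_08660 the differences were -8.98 and -8.23 in the same order. PDE_08540 differed by -1.88 from the hap3 deletion, and its difference from the hap5 deletion was not called. PDE_04024, PDE_04028, PDE_06955 and PDE_08660 were chosen by these differences. The other genes listed here were chosen by their wild type values, which also enter each difference, so the sizes are a description. No outlier test was run, as groups had 3 libraries.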

How the results depend on the processing

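Counts of wild type genes stayed within 1.5 times of 2017 higher and 1209 lower under the alternatives that kept the minimum change. They were 2185 and 1280 at a pseudocount of 0.1, 1811 and 1394 with median-of-ratios scaling, 1475 and 1545 with quantile normalization, and 1953 to 2076 and 1183 to 1221 with a library left out. Without a minimum change 3635 were higher and 2513 lower, and with a minimum of 3 there were 523 and 238. Without a minimum, wild type minus hap3 deletion responses were positive at 2701 and negative at 2062 genes, and wild type minus hap5 deletion responses at 3092 and 1823. At off and on limits of 0.5 and 20 FPKM, 68 genes were switched on and 36 off. The share of the FPKM total was -2.56 percentage points on bran and cellulose minus glucose for the 100 most abundant genes (-2.98 to -2.29 with a library left out), 3.32 for 10 and -8.98 for 500. The share of rising genes with a rising next tag was 33.5% with quantile normalization, where 17.0% of all tested PDE tags rose, and 26.4% at changes of at least 3, where 6.04% did. For falling genes it was 24.8%, where 17.8% of all fell, and 14.4%, where 2.74% did. The causes were not tested. Same-numbered libraries are not known to be paired: deviations of wild type libraries with the same number correlated at 0.0228, 0.0847 and 0.0301, and a replicate block gave 2022 higher and 1206 lower genes. A pseudocount of 0.1 gave changes of 11.41 for PDE_07945, -12.03 for PDE_06955, -11.08 for PDE_00370 and 9.35 for PDE_04024. Directions and calls of these 4 genes held under all alternatives run. The difference from the hap5 deletion, not called on the deposited scale, was called for PDE_09832 (1.80) and PDE_08540 (-1.72) with quantile normalization, and for PDE_08540 (-1.14) without the second hap5 deletion library on glucose. With a library left out, differences from hap3 were positive at 1437 to 1585 and negative at 1059 to 1191 genes, those from hap5 at 1619 to 1753 and 929 to 997, and 138 to 163 genes were switched on and 67 to 74 off. Unknown depth limits what can be said of low genes.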
